A study of Drosophila melanogaster with 2 samples.

Results

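The regions described here are the Tailless-GFP summits that lie at promoters. A summit was counted as a promoter summit when it lay at most 500 bp from the transcription start site (TSS) of any protein-coding transcript, and position was the only property used to choose. This gave 1519 of 4045 summits in the list that passed the authors' irreproducible discovery rate threshold, or 37.6% (exact binomial 95% interval 36.1 to 39.1%), and left 2526 summits farther away. The promoter summits fell in 1473 intervals, since 107 of them shared an interval with another promoter summit or with a more distant one.

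The data are ChIP-seq peak lists from 1 group, whole Drosophila melanogaster embryos of 0 to 4 h and both sexes. The embryos came from the transgenic strain 8T-GFP, which stably expresses Tailless with GFP at its C terminus, and chromatin was precipitated with an antibody to GFP. The group held 2 biological replicates, numbered 1 and 3, of that 1 strain. Control samples were not analysed here. The promoter that drives the transgene and the state of the endogenous tll gene are not given in the labels, and whole embryos mix cells with and without the protein, so the signal is an average over cells. With 1 group of 2 replicates no exact permutation test over samples can pass a threshold, and summits are not replicates. All comparisons below are therefore descriptions, and their intervals cover counting error between summits, TSSs or genes only.

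Tailless is a nuclear receptor of the TLX class that acts mainly as a repressor. It is made at both ends of the early embryo under the control of Torso signalling, and later in the head and brain. A promoter is the stretch around a TSS where RNA polymerase is loaded. Drosophila promoters are commonly divided into those of broadly used genes, which often carry the DRE (TATCGATA) or Motif 1 (core GGTCACAC) and often stand head to head in divergent pairs, and those of developmentally regulated genes, which more often carry a TATA box, an initiator or a downstream element at fixed positions.

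The following stretches of 101 bases, centred on the summit and written on the strand of the nearest TSS in the dm6 (Release 6) sequence, show what such regions look like. Capitals mark AAGTCA, the core recognition word of Tailless, and its reverse complement TGACTT, the DRE word TATCGATA, and CAGGTA, which the pioneer factor Zelda recognises, with its reverse complement TACCTG. The first 5 are the strongest promoter summits with AAGTCA within 50 bp on the arms from which sequence is shown.
sim (chr3R:13072157-13072257, strand +): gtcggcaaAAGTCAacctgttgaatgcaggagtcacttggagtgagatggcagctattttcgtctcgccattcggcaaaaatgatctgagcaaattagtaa
Pbp95 (chr3R:8013723-8013823, strand +): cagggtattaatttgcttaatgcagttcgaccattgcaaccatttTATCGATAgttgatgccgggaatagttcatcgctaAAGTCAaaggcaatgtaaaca
Ama (chr3R:6762864-6762964, strand +): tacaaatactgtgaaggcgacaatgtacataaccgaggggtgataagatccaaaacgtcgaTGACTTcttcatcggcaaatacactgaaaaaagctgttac
dah (chrX:15328288-15328388, strand +): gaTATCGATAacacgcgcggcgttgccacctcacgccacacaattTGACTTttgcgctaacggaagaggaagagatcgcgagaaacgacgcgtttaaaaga
CG15876 (chr3L:4694915-4695015, strand -): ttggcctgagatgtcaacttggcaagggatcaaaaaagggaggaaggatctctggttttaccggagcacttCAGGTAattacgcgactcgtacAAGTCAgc
RpS25 completes the 3 strongest with TATCGATA on the same arms, the others being Pbp95 and dah, and hb, prd and lab are the strongest with AAGTCA among the gap, pair-rule and Hox genes. These last genes were chosen after their values had been seen.
RpS25 (chr3R:11216280-11216380, strand -): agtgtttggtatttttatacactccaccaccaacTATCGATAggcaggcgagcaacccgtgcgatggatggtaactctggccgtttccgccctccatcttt
hb (chr3R:8694674-8694774, strand -): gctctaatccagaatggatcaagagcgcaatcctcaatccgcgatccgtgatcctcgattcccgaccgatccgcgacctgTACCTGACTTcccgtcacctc
prd (chr2L:12085817-12085917, strand -): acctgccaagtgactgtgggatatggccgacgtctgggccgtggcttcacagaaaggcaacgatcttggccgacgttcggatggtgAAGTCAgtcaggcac
lab (chr3R:6663417-6663517, strand -): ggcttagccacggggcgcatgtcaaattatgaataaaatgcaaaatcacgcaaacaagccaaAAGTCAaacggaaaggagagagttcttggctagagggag
Pbp95, which encodes a subunit of the snRNA activating complex, and dah, a gene of cellularization furrows, carried the Tailless word and the DRE word in the same window. At hb the Zelda word and the Tailless word overlapped on the same strand, as TACCTGACTT.

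Promoter summits lay close to the TSS and mostly just upstream of it. The median distance was 108 bp, and 47.1% lay within 100 bp and 81.4% within 250 bp. Upstream of the nearest TSS stood 1106 summits (72.8%, 70.5 to 75.04%), downstream 409 (26.9%), and 4 stood on the TSS base itself. The fullest 50 bp bin was -100 to -51 bp with 250 summits, followed by -50 to -1 bp with 230 and 0 to 49 bp with 158. By annotation 46.7% were intergenic, 27.1% lay in a 5′ UTR and 21.7% in an intron, against 39.2%, 1.03% and 52.3% of the other thresholded summits. Coding sequence held 31 promoter summits (2.04%). At the edge of the rule, the 35 summits at 451 to 500 bp had a median signal value of 290 and the 36 at 501 to 550 bp a median of 227. The farthest members were at CG42571 (496 bp), Doc1 and puc (495 bp each), and the nearest summits outside, all at 501 bp, were at fz, Sxl, Sik3 and dikar.

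**Figure D1:**
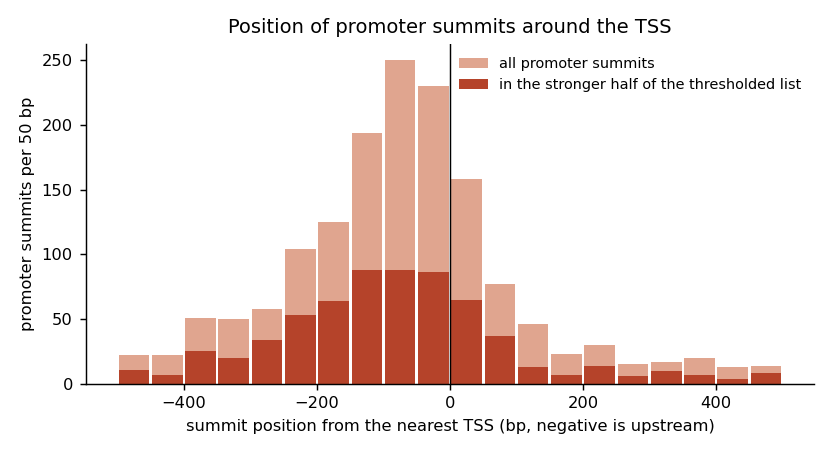
Number of promoter summits in bins of 50 bp by position from the nearest protein-coding TSS (negative is upstream); the dark bars are the summits that belong to the stronger 2022 of the thresholded list. Counts peak at 250 in the bin from -100 to -51 bp and are lower on the downstream side.

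The signal value, an enrichment given by the authors' peak caller on a scale that is not stated, was lower at promoters than elsewhere. In the pooled data promoter summits had a median of 266 (range 195 to 2008), against 301 (195 to 3700) for the other thresholded summits. Replicate 1 gave medians of 156 at promoters and 179 elsewhere, and replicate 3 gave 137 and 164. Both replicates thus had the lower median at promoters. Interval widths had the same median, 516 bp, in both sets, but the upper quartile was 516 bp at promoters and 568 bp elsewhere. An interval was shared by 7.04% of promoter summits and 20.2% of the others, and summits in 1 interval share its replicate value. The ratio of the promoter median over the other was 0.871 in replicate 1 and 0.836 in replicate 3. With the replicate entry whose summit was nearest within 150 bp it was 0.904 and 0.875. The GC content of the 201 bases around the summit had a median of 40.8% at promoters against 45.8% elsewhere. It was not tested whether base composition, mappability or the control had a part in the difference in signal.

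Promoters were scarce at the very top of the list. They made up 11 of the 100 strongest pooled summits (11.0%, 5.62 to 18.8%) and 27.5% of ranks 101 to 500. The share was 37.1% at ranks 1001 to 2000 and 43.3% (40.3 to 46.4%) at ranks 3001 to 4045. Replicate 1 alone gave 13.0% for its first 100 and 43.4% for ranks 3001 to 4045, and replicate 3 gave 11.0% and 43.2%. The share therefore had the same course in each replicate. Beyond the threshold, in the weaker pooled summits, it was 44.9% at ranks 4046 to 6000 and 19.7% at ranks 20001 to 30000. The 4045 strongest summits of replicate 1 held 1552 promoter summits (38.4%) and those of replicate 3 held 1482 (36.6%).

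**Figure D2:**
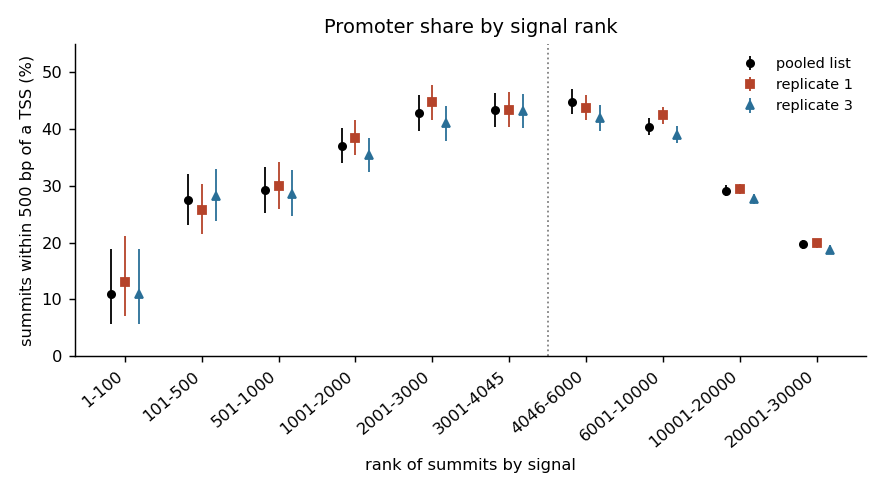
Share of summits within 500 bp of a TSS (vertical axis, percent) in bins of rank by signal, for the pooled list (circles), replicate 1 (squares) and replicate 3 (triangles); bars are exact binomial 95% intervals and the dotted line marks the length of the thresholded list. The share is 11.0 to 13.0% among the first 100 summits and 43.2 to 43.4% at ranks 3001 to 4045.

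Recurrence between replicates was counted as the share of thresholded summits whose interval overlapped, by at least 1 bp, one of the 4045 strongest summits of a replicate. Both replicates held 78.3% of all thresholded summits in this way. For promoter summits the share was 74.1% (71.8 to 76.3%), against 80.9% (79.3 to 82.4%) of the other thresholded summits. Another 200 promoter summits were among the strongest of replicate 1 only, 177 of replicate 3 only and 16 of neither. Anywhere in the 30000 entries of a replicate, 1516 promoter summits had an entry in replicate 1 and 1518 in replicate 3. Recurrence followed signal: it was 99.2% of the strongest 506 promoter summits, 87.0% of the middle 507 and 36.2% of the weakest 506. Since the thresholded list is the strongest 4045 of the pooled list, a summit near its lower end can miss the strongest 4045 of a replicate by a small difference in signal.

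The replicates gave similar signal at promoters, with a small offset. The log2 ratio of replicate 1 over replicate 3 had a median of 0.18 (middle 50% of values from -0.10 to 0.45) at promoters and 0.13 at the other thresholded summits, so the offset was common to both. Across 1515 promoter summits the Pearson correlation of log2 signal was 0.767 and the Spearman correlation 0.660, against 0.890 and 0.841 across 2524 other summits. These summits were selected by pooled signal and share one control alignment, and the promoter set spans a narrower range of signal. The signal differed by more than 2-fold at 58 promoter summits, 48 of them higher in replicate 1 and 10 higher in replicate 3.

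The largest differences were, but for that at CG13384/Dad1 (pooled signal value 289), at summits below the promoter median of 266. The summit 48 bp downstream of a TSS of sturkopf, in the pair sturkopf/Herc4, had a signal value of 179 in replicate 1 and 45.7 in replicate 3. That at Con, a cell adhesion gene, had 207 and 54.2, and that at CG7518 had 185 and 49.5. In the other direction CG7841 had 50.6 in replicate 1 and 146 in replicate 3, and Btk, a tyrosine kinase gene, had 59.3 and 143. The summit between CG13384 and Dad1, the last a subunit of oligosaccharyltransferase, had 92.5 and 218. None of these 6 summits ranked above 1999 in the pooled list.

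**Figure D3:**
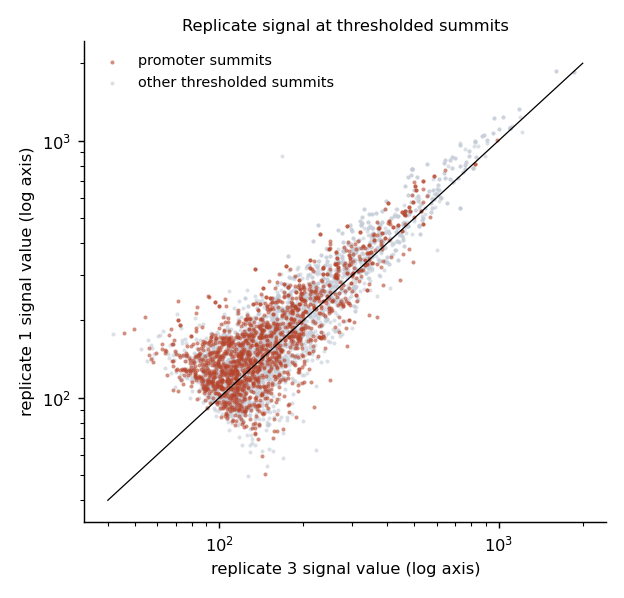
Signal value in replicate 1 (vertical, log axis) against replicate 3 (horizontal, log axis) for each thresholded summit, with promoter summits in red, the other thresholded summits in grey and the line of equal values in black. Promoter summits sit mostly in the lower range, and the highest of them is at 1004 in replicate 1 and 990 in replicate 3.

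The highest promoter summit lay 206 bp upstream of a TSS of pnr, which encodes a GATA factor of the dorsal embryo, in an intron of a longer transcript (chr3R:16034380). Its signal value was 1004 in replicate 1 and 990 in replicate 3 (log2 9.96 ± 0.014, SD, n = 2), and 2008 in the pooled list. The second, also in an intron, lay 192 bp upstream of a TSS of sim, the bHLH-PAS regulator of the midline, with 812 in replicate 1 and 825 in replicate 3. The third lay 395 bp upstream of a TSS of cnc, a bZIP gene of the head, with 768 and 642. In each of these 3 the replicates differed by far less than the summits differed from the median promoter summit.

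Next came BNIP3, a mitophagy receptor gene, with 731 in replicate 1 and 589 in replicate 3, and Pbp95 with 696 and 536. Others among the 20 strongest were Doc1, a T-box gene of the amnioserosa, scro, an NK2 homeobox gene, Alk, a receptor tyrosine kinase gene, and Ama, an immunoglobulin domain gene, which had 2 of the 20. Cytoskeletal genes were represented by dah, by btsz, a gene needed for the apical actin network, with its summit on the TSS base, and by pnut, which encodes a septin. The divergent pairs CG8814/Ifrd1, CG32022/CG6511 and bur/Mcm10 and the genes CAP, px, CG15876 and lov complete the 20. Of these summits 14 were upstream of the TSS, 10 lay in an intron, 10 had AAGTCA within 50 bp and 5 lay within 100 bp of the TSS. All ranked within the first 166 of replicate 1 and the first 122 of replicate 3.

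At tll itself 2 promoter summits shared an interval, 367 and 167 bp upstream of the TSS, with pooled signal values of 894 (rank 166) and 376 (rank 1202). The interval had 486 in replicate 1 and 406 in replicate 3. Neither summit had AAGTCA within 50 bp. Extra copies of the tll region in the transgenic strain can add signal here, which was not tested.

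A gene was counted as reached when any of its TSSs lay within 500 bp of a thresholded summit. This held for 1852 of 13945 protein-coding genes (13.3%), the background for the lists that follow, some of which share members. Replicate 1 alone reached 13.0% and replicate 3 alone 12.9% of all genes with their 4045 strongest summits, and 1305 genes were reached in both, which is 71.9% of those of replicate 1 and 72.4% of those of replicate 3. Of the 1852 genes, 1619 had 1 promoter summit, 215 had 2, 13 had 3, 4 had 4 and 1 had 5. That gene was l(3)neo38, a zinc finger gene, and those with 4 were sktl, a lipid kinase gene, erm, a zinc finger gene of neural progenitors, Drat and Hel89B. The strongest summit counted for sktl (rank 132) was nearer to a TSS of insc. Genes with 1 TSS were reached in 10.2% of cases, those with 2 in 18.9% and those with 3 or more in 28.6%, so a gene with more TSSs had more chances to be counted. Reached genes were also longer, with a median of 3473 bp against 2035 bp for the other genes, and 27.9% of them had only a CG number as a symbol against 46.2% of the others.

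Genes that subdivide the head-to-tail axis were reached several times more often than the background of 13.3%. Of the 7 gap and terminal gap genes, the first zygotic genes of this cascade, 5 were reached, all 5 in each replicate alone, while Kr and knrl were not. The promoter summit of gt, a bZIP repressor, lay 124 bp upstream of its TSS with 458 in replicate 1 and 372 in replicate 3. That of hb, a zinc finger gene, lay 124 bp upstream with 257 and 229, that of hkb, the other terminal gap gene, 105 bp upstream with 213 and 184, and that of kni, a nuclear receptor gene, 259 bp upstream with 177 and 142. Only hb among the 5 had AAGTCA within 50 bp of that summit. Of the 12 head gap and anterior head genes 10 were reached, without slp1 and fd102C. Behind cnc they were led by croc, a forkhead gene, with 444 in replicate 1 and 451 in replicate 3, oc, the homeobox gene also called orthodenticle, with 327 and 292, and toy, a Pax6 gene, with 232 and 211.

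Pair-rule genes, which set the period of the segments, were reached in 9 of 11 cases, all but slp1 and ftz-f1. The summit 368 bp upstream of ftz had 384 in replicate 1 and 334 in replicate 3, that 40 bp upstream of prd had 355 and 316, and that 199 bp upstream of hry had 270 and 222. The odd summit lay 29 bp inside the gene with 260 and 221. Homeodomain and zinc finger genes are both among these. Segment polarity genes were reached in 7 of 16 cases with lower signal, as at wg, a Wnt ligand gene (153 in replicate 1 and 167 in replicate 3), hh, a Hedgehog ligand gene (175 and 153), and the T-box genes mid (183 and 123) and H15 (256 and 197). Hox genes were reached in 6 of 8 cases, all but Antp and pb. With the 5′ end of each gene as its only TSS the shares were 42.9% for gap genes and 37.5% for Hox genes, against 71.4% and 75% with every TSS and a background of 11.5% in that setting. The summit of lab lay 13 bp upstream with 375 in replicate 1 and 361 in replicate 3, that of Dfd had 268 and 292, that of abd-A 174 and 180 and that of Ubx 155 and 142. All 4 were well below pnr in both replicates.

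Genes of the dorsoventral axis were reached in 14 of 27 cases. Behind pnr, sim and Doc1 came dpp, the BMP ligand gene, with 383 in replicate 1 and 248 in replicate 3. Its summit, 260 bp upstream of a TSS, had AAGTCA within 50 bp. Genes of GATA factors gave 2 of 5, pnr and grn (211 in replicate 1 and 145 in replicate 3), in the thresholded list and 3 in each replicate alone. SoxB and neuroblast genes gave 8 of 18. They included insc, which orients the spindle of neuroblasts, with 528 in replicate 1 and 452 in replicate 3, pros, a homeodomain gene of neural differentiation, with 477 and 403, SoxN with 232 and 141, and esg, a Snail family gene, with 130 and 193.

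Notch and Enhancer of split genes gave 9 of 20. The Bearded family gene Brd had 314 in replicate 1 and 321 in replicate 3, the bHLH repressor gene E(spl)mbeta-HLH had 319 and 236, and E(spl)m4-BFM and E(spl)malpha-BFM, also of the Bearded family, had 258 and 201, and 235 and 158. The Enhancer of split genes stand close together on 3R, and Brd and Ocho on 3L, so the counts within each cluster are not independent. Early zygotic and cellularization genes gave 9 of 18, led by amos, a proneural gene (238 in replicate 1 and 253 in replicate 3), run (238 and 165), halo (219 and 117) and esg, while nullo, a gene of the cellularization front, had 153 and 169.

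Torso and Ras pathway genes, some of which act upstream of tll, gave 6 of 18. With the 5′ end of each gene as its only TSS the share was 11.1%, below the 11.5% of all genes in that setting. The summit of cic, whose product is a repressor of tll, lay 81 bp upstream with 377 in replicate 1 and 283 in replicate 3. The Ets repressor gene aop had 223 and 218, the Ets activator gene pnt 174 and 183, and the kinase gene Raf 164 and 152. Nuclear receptor genes, the family of Tailless, gave 4 of 21, namely tll, kni, Eip75B (243 in replicate 1 and 182 in replicate 3) and Hr96 (151 and 98.1). The summit counted for Hr96 was nearer to a TSS of EMC6. The exact interval of the nuclear receptor share, 5.45 to 41.9%, includes the background of 13.3%, and with 5′ ends alone the share was 9.52%, below the 11.5% of all genes.

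Genes of chromatin and transcription were reached as well. Corepressor and Polycomb group genes gave 7 of 17, among them ph-p and Psc of the PRC1 complex, E(z), the methyltransferase of PRC2, and gro, a corepressor. The ph-p summit had 287 in replicate 1 and 443 in replicate 3, and the E(z) summit 115.2 and 213, both higher in replicate 3 against the median offset. Insulator, pioneer and core promoter factor genes gave 6 of 17. They were led by Chro (207 in replicate 1 and 366 in replicate 3), Cp190, an insulator protein gene (232 and 273), Trl, which encodes GAGA factor (252 and 232), and opa (251 and 177). The gene of Zelda, zld, had 165 and 103. Mediator subunit genes gave 8 of 29, led by MED26 with 475 in replicate 1 and 410 in replicate 3 and AAGTCA near its summit, then skd (219 and 138), MED23 (190 and 120) and MED7 (141 and 171). The summits counted for Trl and MED23 were nearer to a TSS of CG42507 and of Gmer.

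Genes of general cell function were reached above the background in part of the lists, with lower signal. Cell cycle genes gave 11 of 26, led by CycA (200 in replicate 1 and 291 in replicate 3), aurA (220 and 168), CycE (214 and 183) and E2f1 (222 and 152). Proteasome subunit genes gave 11 of 32 and cytoplasmic ribosomal protein genes 28 of 86 (32.6%, 22.8 to 43.5%). The RpS25 summit had 349 in replicate 1 and 295 in replicate 3, RpS27 had 304 and 261, RpS19a 292 and 264 and RpL7 192 and 204. Replicate 1 alone reached 25 of the 86 and replicate 3 alone 31, with 21 in common. Mitochondrial ribosomal protein genes gave 18 of 73, led by mRpS10 with 380 in replicate 1 and 479 in replicate 3 and mRpL1 with 306 and 302.

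Translation initiation factor genes gave 10 of 44, led by eIF4G2 with 572 in replicate 1 and 403 in replicate 3. Its summit was nearer to a TSS of CG33111. Respiratory chain genes gave 14 of 84 (16.7%, 9.42 to 26.4%), led by ND-51 (348 in replicate 1 and 320 in replicate 3) and ATPsynC (320 and 305). Aminoacyl-tRNA synthetase genes gave 5 of 32, led by ArgRS (236 and 155), with 4 in replicate 1 alone (12.5%, below its background of 13.0%) and 8 in replicate 3 alone (25%), and heat shock and chaperone genes 4 of 21, led by Hsp27 (140 and 150). The intervals of all 4 shares include 13.3%, as do those of the Mediator, GATA factor and muscle structural genes. The median of the best pooled signal value per reached gene was 239 to 296 in the ribosomal, proteasome, respiratory, translation, cell cycle and Mediator lists. It was 465 for gap genes, 411 for pair-rule genes, 424 for dorsoventral genes, 320 for Hox genes and, within the range of the general lists, 284 for segment polarity genes. Insulator, pioneer and core promoter factor genes had 451 and the 2 reached muscle structural genes 332.

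At the low end, muscle structural genes gave 2 of 19, Zasp52 (231 in replicate 1 and 195 in replicate 3) and Tm1 (162 and 87.0). Replicate 3 alone and the 5′ ends alone gave 1 gene (5.26%). None of 120 odorant and gustatory receptor genes was reached, where the interval allows up to 3.03%, and none of 97 cuticle protein genes, where it allows up to 3.73%. Each replicate alone gave 0 for both as well. In the whole pooled list of 30000 summits 52.3% of all genes were reached. There the receptor genes gave 10 of 120 and the cuticle genes 7 of 97, the ribosomal protein genes 79 of 86, and the gap, head, pair-rule, Hox and dorsoventral genes were all reached.

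**Figure D4:**
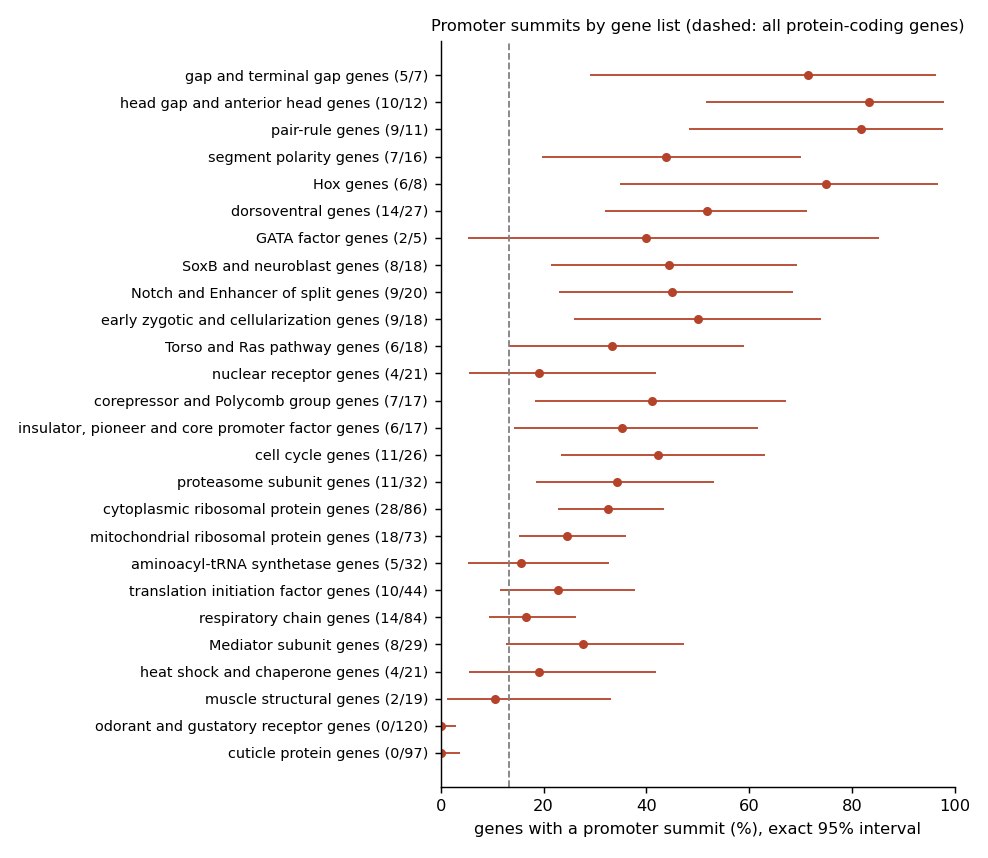
Percent of the genes in each of 26 lists with a TSS within 500 bp of a thresholded summit (points, with exact binomial 95% intervals), with the number reached and the list size in the label; the dashed line is the 13.3% of all protein-coding genes. Pattern genes lie farthest to the right (83.3% of head genes), and receptor and cuticle genes are at 0.

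Divergent pairs, defined as nonoverlapping genes whose TSSs point away from each other at most 1000 bp apart, were somewhat more frequent at promoter summits than among all TSSs. The nearest TSS belonged to such a pair for 563 promoter summits (37.1%, 34.6 to 39.5%), against 28.2% of all TSSs and 9.14% of the other thresholded summits, whose nearest TSS lies farther off. Counted by TSS, 51.5% (49.4 to 53.5%) of the 2279 TSSs with a summit within 500 bp were divergent, against 25.1% of the 16974 without one. A summit between a close pair is within reach of both TSSs, which raises the count by TSS. By gene, 22.3% of the 4648 genes in divergent pairs were reached and 8.79% of the 9297 others. Both genes were reached in 467 of the 2435 pairs and 1 gene in 137.

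Of all promoter summits 470 (30.9%) lay within 500 bp of both TSSs of a pair. In 355 of 498 such combinations of summit and pair (71.3%) the summit stood between the TSSs. The strongest was between Ifrd1 and CG8814, 401 bp apart on 2L, with 692 in replicate 1 and 499 in replicate 3. It was followed by CG32022/CG6511 (580 and 492, gap 52 bp) and bur/Mcm10, genes of GMP synthesis and DNA replication (476 and 538, gap 250 bp). Art3/mRpS10, an arginine methyltransferase gene and a mitochondrial ribosomal protein gene, had 380 in replicate 1 and 479 in replicate 3 over a gap of 257 bp, and Slh/oaf had 419 and 393 over 284 bp. Divergent promoters were commoner among weak members: 31.4% of the strongest 506 promoter summits, 35.1% of the middle 507 and 44.7% (40.3 to 49.1%) of the weakest 506. They also had a lower GC content, with a median of 35.8% against 43.8% at the other promoter summits.

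Promoter type was described by words at set positions, read on the strand of each distinct TSS with the TSS as position 0. At the 2279 TSSs with a summit the TATA word TATAAA, starting at -36 to -20, was present in 2.76% (2.13 to 3.52%), against 6.82% of the other 16974 and 6.34% of all 19253. The initiator word TCAGT, starting at -7 to 3, was present in 9.74% against 11.1% (all 11.0%), and a downstream word (AGACG or GGACG, and also AGTCG or GGTCG, starting at 24 to 32) in 6.10% against 5.49% (all 5.56%). These shares count every TSS within 500 bp of a summit. At the TSS nearest to each promoter summit, TCAGT was present for 16.2% (13.1 to 19.7%) of the strongest 506. It was present for 12.03% of the middle 507 and 13.04% of the weakest 506, with intervals that include 11.0%. The lower share of TCAGT thus depended on the unit counted. TATAAA stayed below the 6.34% of all TSSs, at 3.16 to 3.75%. Other words were searched on both strands from -150 to 50. At the TSS nearest to each promoter summit, the DRE word was present for 8.10% (5.88 to 10.8%) of the strongest 506. It was present for 11.0% of the middle 507 and 11.1% of the weakest 506. The Motif 1 word was present for 5.73% (3.87 to 8.13%), 10.1% and 10.5%. Both intervals of the strongest 506 include the share of all TSSs, and those of the weaker parts lie above it. Counted over every TSS within 500 bp of a summit, the words searched in this way were more frequent at TSSs with a summit. The DRE word TATCGATA was present in 10.3% (9.09 to 11.6%) against 6.32% (all 6.79%), GGTCACAC of Motif 1 in 9.0% against 5.57% (all 5.98%), and the E-box CAGCTG in 22.0% (20.3 to 23.8%) against 13.0% (all 14.1%). CAGGTA was present in 7.46% against 3.84% (all 4.27%), AAGTCA in 15.1% against 9.99% (all 10.6%) and GAGAGA, the word of GAGA factor, in 13.2% against 10.6% (all 10.9%).

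Each TSS was then classed by these words, a division made after the values above had been seen. Of the 2154 TSSs with TATCGATA or GGTCACAC but none of the positioned words, 17.9% (16.3 to 19.6%) had a thresholded summit within 500 bp, and 82.3% had one in the whole pooled list. Of the 3768 with a positioned word alone 9.39% (8.48 to 10.4%) had a thresholded and 37.0% a pooled summit, and over all TSSs it was 11.8% and 49.7%. The 242 promoter summits nearest to the first kind of TSS had a median signal value of 257, and 61.2% were divergent, against 54.8% of all TSSs of that kind. The 305 nearest to the second kind had a median of 290, and 13.8% were divergent, against 16.1% of all TSSs of that kind. In replicate 1 the medians of these kinds were 147 and 168, and in replicate 3 they were 124 and 150. The first kind also had one of the 4045 strongest summits more often in each replicate, with 17.0% in replicate 1 and 18.2% in replicate 3, against 9.47% and 8.89% of the second kind. The first kind thus had a summit more often and the second kind the higher signal, in both replicates. Here too a summit between a close pair counts for both TSSs, which raises the share of the more divergent first kind. It had 385 TSSs with a thresholded summit for the 242 summits nearest to it, against 354 TSSs for 305 summits of the second kind. Most promoter summits, 941, were nearest to a TSS with none of these words.

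Around the summits themselves, 10 words were counted within 50 bp on both strands and compared with windows of the same length 500 bp to either side, with the other thresholded summits and with windows centred on TSSs without a summit. The Tailless word AAGTCA was present at 214 promoter summits (14.1%, 12.4 to 15.9%). The flanking windows had it in 3.42% and 3.55%, TSS windows without a summit in 5.59% and all TSS windows in 5.98%. The other thresholded summits had it in 15.6% (14.2 to 17.1%), an interval that overlaps that of promoters. The longer AAAGTCA, which contains AAGTCA, was present in 7.31% of promoter summits, 0.92% and 1.18% of flanks, 2.27% of TSS windows without a summit and 2.56% of all TSS windows.

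CAGGTA was present at 5.79% (4.67 to 7.09%) of promoter summits, in 3.16% and 2.90% of the flanks and in 1.87% of TSS windows without a summit (all 2.0%), against 8.12% of the other thresholded summits. The DRE word TATCGATA was at 4.21% of promoter summits and 0.33% and 0.066% of the flanks. TSS windows without a summit had it as often, 4.09% (all 4.48%), and the other thresholded summits in 0.20%. GGTCACAC behaved alike, with 3.03% at promoter summits, 0.13% and 0.39% in the flanks and 4.38% in TSS windows without a summit (all 4.68%). For the DRE word the exact interval at promoter summits, 3.26 to 5.35%, includes the share at TSSs without a summit. For GGTCACAC the interval, 2.23 to 4.02%, lies below that share. Summit windows and TSS windows are placed differently, so these shares cannot show whether promoters with a summit carry the words less often. Counted around the TSS, as above, TATCGATA was in 10.3% of TSSs with a summit against 6.32% of the others. For GGTCACAC these shares were 9.0% and 5.57%.

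GAGAGA was at 5.99% of promoter summits, 3.69% and 5.13% of flanks and 3.92% of TSS windows without a summit (all 4.07%). AGGTCA, the core site of many nuclear receptors, was at 2.70% of promoter summits, against 2.11% and 2.17% of flanks, 1.60% of TSS windows without a summit (all 1.62%) and 4.32% of the other thresholded summits. CAGCTG was at 7.70% (6.41 to 9.16%), against 5.73% and 4.02% of flanks, 4.35% of the other thresholded summits and 7.94% of TSS windows without a summit (all 8.77%). Counted around the TSS, as above, it was in 22.0% of TSSs with a summit against 13.0% of the others. TAATCC, the Bicoid word, was at 3.42%, below both flanks (4.21% and 5.07%), with 2.37% of all TSS windows. CAGGTG, the Snail word, was at 4.08%, also below both flanks (5.79% and 4.94%), with 3.52% of all TSS windows. A match is a run of letters, not a measured site, and a window without one says nothing about binding.

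**Figure D5:**
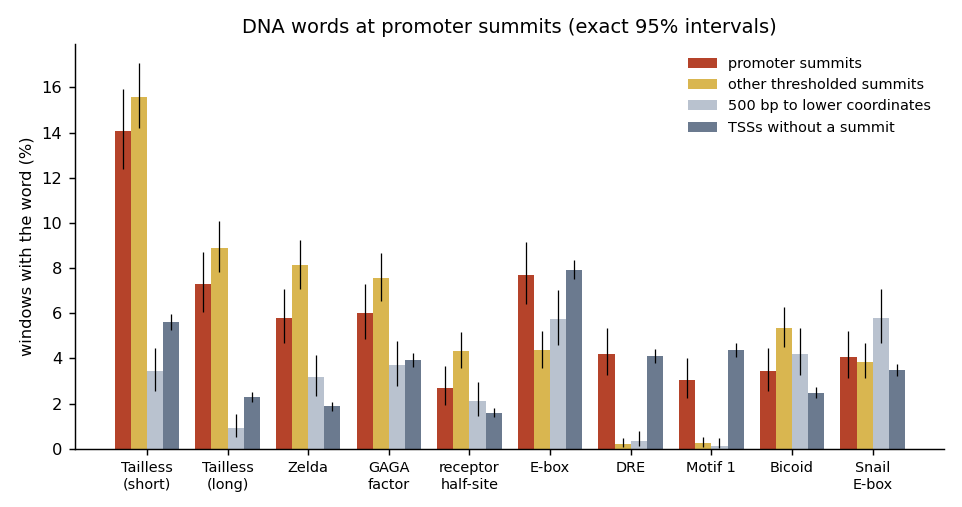
Percent of windows of 101 bp with each of 10 words, on both strands, at promoter summits, the other thresholded summits, windows 500 bp to the lower-coordinate side of promoter summits and TSSs without a summit; bars carry exact binomial 95% intervals. From left to right the words are AAGTCA (short Tailless word), AAAGTCA (long Tailless word), CAGGTA (Zelda), GAGAGA (the factor encoded by Trl), AGGTCA (nuclear receptor core site), CAGCTG (E-box), TATCGATA (DRE), GGTCACAC (Motif 1), TAATCC (Bicoid) and CAGGTG (Snail), and the first stands at 14.1% of promoter summits against 5.59% of TSSs without one. Windows at TSSs without a summit are centred on the TSS and those at summits on the summit, so they are placed differently.

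The Tailless word went with signal among promoter summits. AAGTCA was within 50 bp of 22.3% (18.8 to 26.2%) of the strongest 506, 13.4% (10.6 to 16.7%) of the middle 507 and 6.52% (4.53 to 9.04%) of the weakest 506, the last close to the 5.98% of all TSS windows. Promoter summits with the word had a median pooled signal value of 334, against 260 for those without it. Replicate 1 gave medians of 193 with and 151 without the word, and replicate 3 gave 163 and 134. GC content was 42.0% with and 40.3% without it, and its part in the difference was not tested. The 88 with CAGGTA also had a higher median, 308 against 265 without it, with 170 against 155 in replicate 1 and 172 against 136 in replicate 3. CAGGTA was at 8.50% of the strongest 506, 4.34% of the middle 507 and 4.55% of the weakest 506. The 64 promoter summits with TATCGATA had a median signal value of 258 against 267 without it, and 62.5% of them were divergent against 35.9%.

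By chromosome arm, genes were reached in 15.6% of cases on 3L, 15.1% on 3R, 13.1% on 2R, 12.9% on 2L, 8.75% (7 of 80) on chromosome 4 and 8.52% (187 of 2196, 7.38 to 9.76%) on X. The promoter share of the thresholded summits on an arm differed less, between 36.0% and 40.1% on the larger arms and 30.0% (14.7 to 49.4%) on chromosome 4. Embryos of both sexes were pooled and males carry 1 X, so copy number and binding cannot be told apart in the lower X share.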

How the data were processed

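ChIP-seq peak lists of 1 group of 2 biological replicates were used: 1 list for each replicate, 1 pooled list, and the list past an irreproducible discovery rate threshold. The replicate and pooled lists came, per the file headers and the notes deposited with them, from the replicate alignments and the same control alignment, in dm6. Which aligner, peak caller and threshold were used is not given in the sources used here. Each peak's signal, an enrichment by the authors on an unstated scale, served only to rank and describe. The deposited −log10 q-value, which reaches a ceiling, was not used. The deposited summit offset plus the interval start gave each summit. Read counts are not part of the lists, so depth is unknown, and each replicate list stops at 30000 entries, which limits what can be seen below it.

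TSSs were those of 30748 protein-coding transcripts (19253 distinct TSSs, 13945 genes) in Ensembl release 115 (BDGP6.54). Sequence was read from Release 6, the assembly of dm6. A replicate's value at a summit is that of the strongest replicate entry overlapping its interval by at least 1 bp, so summits that share an interval share it. Shares carry exact (Clopper-Pearson) binomial 95% intervals, which cover counting error only. Python 3.11.15, numpy 2.4.6, pandas 2.3.3, scipy 1.17.1 and matplotlib 3.10.9 were used, and positions, replicate values and word counts were tested on simulated summits. The 26 gene lists hold 863 genes (7 symbols matched through another name and 1 without a match).

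The members, gene lists, words and alternatives were chosen with earlier results of these data known. Named genes are the 20 strongest promoter summits, up to 4 reached members per list with the strongest summits, the 5 strongest divergent pairs, the 3 largest replicate ratios in each direction, the genes with most summits, tll, and, chosen after their values were seen, members outside these that the text names (kni, nullo and zld, the genes of small counts, and the hb, prd and lab sequences).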

Additional observations from a re-analysis of the deposited data

Results flagged for a closer look

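Words were also counted at promoter summits outside the thresholded list. Among the 7386 pooled promoter summits below the threshold (28.5% of 25955 weaker summits), AAGTCA lay within 50 bp of 498, or 6.74% (exact binomial 95% interval 6.18 to 7.34%), against 3.85% (3.54 to 4.17%) of the windows 500 bp to either side. The count is given here because the word counts around summits in the report do not use these summits and no control samples were analysed. The share is close to the 5.98% of all TSS windows. In the same summits TATCGATA was at 3.59% against 0.49% of the flanks and CAGGTA at 3.15% against 2.55%. Over all TSS windows these words were in 4.48% and 2.0%.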

How the results depend on the processing

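Of 378 alternatives over all values, 298 left the value within its interval (gene lists within 1.5 times, the ratio of medians within the difference between replicates), 76 moved it further and 4 took a gene list across the background of its setting. These were Torso and Ras pathway genes (11.1%) and nuclear receptor genes (9.52%) with 5′ ends alone, against 11.5% of all genes, heat shock and chaperone genes in the stronger 2022 (4.76% against 5.59%) and aminoacyl-tRNA synthetase genes without replicate 3 (12.5% against 13.0%). The promoter share was 30.6% with a distance of 250 bp, 44.6% with 1000 bp, 30.4% with the 5′ end of each gene as its only TSS, 39.4% with 1 summit per interval and 32% in the stronger 2022 of the list. In the same order, without the 1 summit per interval, the share of genes reached was 10.9%, 15.2%, 11.5% and 5.59%, and the divergent share 43.2%, 33.5%, 45.8% and 32.3%. The divergent share was also 30.5% with pairs at most 500 bp apart and 19.9% with at most 300 bp, against 20.2% and 12.8% of all TSSs, and with 5′ ends alone the share of all TSSs was 33.1%. With the 5′ ends alone TATCGATA stood at 13.0% of promoters with a summit. Recurrence in both replicates was 98.9% in the stronger 2022 and 68.2% when summits had to lie within 150 bp of each other. AAGTCA was at 20.2% of promoter summits in the stronger 2022, at 7.97% within 25 bp and at 24.4% within 100 bp. Without replicate 1 or 3 in turn, the promoter share ranged from 36.6% to 38.4%, the share of genes from 12.9% to 13.0%, the divergent share from 36.1% to 37.1% and the AAGTCA share from 14.3% to 14.8%. The ratio of the median signal of promoter summits over that of the others was 0.884 and stayed below 1 in each alternative run. Of 182 alternatives for gene lists 155 stayed within 1.5 times and on the same side of the background. With 5′ ends alone SoxB and neuroblast genes gave 27.8%, corepressor and Polycomb group genes 23.5% and Mediator genes 17.2%. No paired analysis was possible because there is only 1 group. Depth is unknown, so precision below the threshold could not be judged.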
